A study of Mus musculus with 2 samples.

Results

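The CC chemokine genes of mouse chromosome 11 lie in 2 clusters 1409 kb apart, and the loops called there by Hi-C in HPC5 cells are described here. The 10 genes are Ccl2, Ccl7, Ccl11, Ccl12 and Ccl8 (called the Ccl2 group) and Ccl5, Ccl9, Ccl6, Ccl3 and Ccl4 (called the Ccl3, Ccl5 and Ccl9 group), out of 21521 protein-coding genes of the autosomes and X. They were listed by name, and they and the surrounding window of 2200 kb were chosen by where the deposited loops lay, so the positions below are a description and none of them was tested. Loops counted are those with an anchor or any part of their span in that window. There were 22 of 7005 loops, and all 22 had an anchor inside it. The window edges fell in stretches without called loops. The nearest loop to the left ended at 80824999 and the nearest to the right began at 84250001, both in replicate 2, while the outermost anchors inside were 81975001 to 81999999 and 83975001 to 83999999.

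HPC5 is a mouse haematopoietic progenitor line from bone marrow, and both samples were Etv6+/+, with no mutant or treated sample beside them. They form 1 group with the replicate numbers 1 and 2, and nothing in the labels says whether they were separate cultures, so differences between them may be technical. The series concerns the repression of inflammatory genes by ETV6, a transcriptional repressor of the ETS family. Hi-C joins pieces of chromatin that touch in the nucleus and sequences the junctions. A called loop is a pair of bins, its anchors, with more such contacts than their surroundings. For each replicate the authors deposited a shorter and a longer list of loops and a list of domains. The shorter is called the high setting here, and the longer the medium setting, used unless stated. Every loop of the window on 5 or 10 kb anchors was in the high list, and none on 25 kb anchors was. In all, replicate 1 had 202 high-list loops, beside 202 loops on 10 kb anchors and 0 on 5 kb. Replicate 2 had 3354, beside 2368 on 10 kb and 986 on 5 kb anchors. Being in a high list thus followed anchor width and does not rank loops by strength. Replicate 1 listed 1276 loops and replicate 2 listed 5729, and the part of list length in what replicate 1 lacked was not tested. The depth behind the lists is unknown, and they hold no expression values, so the cell type could not be checked against markers.

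CC chemokines are small secreted proteins with adjacent cysteines that draw leukocytes along gradients by binding G protein-coupled receptors. Ccl2, Ccl7, Ccl12 and Ccl8 are monocyte chemoattractant proteins, and Ccl11 is eotaxin, which attracts eosinophils. Ccl3 and Ccl4 are macrophage inflammatory proteins, Ccl5 is RANTES, and Ccl6 and Ccl9 are rodent chemokines of myeloid cells. Many of these genes are switched on by inflammatory signals, and the families arose by local duplication, which is why they sit side by side.

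Upstream sequences are shown for Ccl9, whose start lay in an anchor of replicate 1, for Ccl1, whose start lay in one of replicate 2, and for Ccl6, which neighbours Ccl9 inside the same loop. Ccl1 is not one of the 10, but in replicate 2 it lay in right anchors of Ccl2 group loops. Each run is the 250 bases before the RefSeq start in GRCm38.p6, written 5′ to 3′ along the gene, all on the minus strand, at chr11:83578637-83578886 for Ccl9, chr11:82179813-82180062 for Ccl1 and chr11:83593088-83593337 for Ccl6. Capitals mark GGAAGT on either strand, a short form of the site bound by ETS-family factors.
Ccl9: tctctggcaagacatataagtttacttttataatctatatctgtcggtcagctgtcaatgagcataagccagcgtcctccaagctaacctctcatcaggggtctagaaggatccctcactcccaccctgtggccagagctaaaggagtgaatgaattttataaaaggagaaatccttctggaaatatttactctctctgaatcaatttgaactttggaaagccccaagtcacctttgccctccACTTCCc
Ccl6: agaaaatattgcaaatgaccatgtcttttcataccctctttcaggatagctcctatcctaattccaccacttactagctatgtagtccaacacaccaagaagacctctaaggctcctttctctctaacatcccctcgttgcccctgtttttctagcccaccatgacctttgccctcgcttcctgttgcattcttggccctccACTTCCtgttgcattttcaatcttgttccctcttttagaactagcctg
Ccl1: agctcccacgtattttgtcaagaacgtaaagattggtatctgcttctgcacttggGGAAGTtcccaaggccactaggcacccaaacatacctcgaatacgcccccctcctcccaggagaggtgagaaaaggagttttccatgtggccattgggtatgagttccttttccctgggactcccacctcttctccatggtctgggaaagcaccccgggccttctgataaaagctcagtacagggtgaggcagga

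The table held such sequences for 5 of the 10 genes, Ccl12, Ccl8, Ccl9, Ccl6 and Ccl3, and not for Ccl2, Ccl7, Ccl11, Ccl5 and Ccl4. GGAAGT was found in 4 of these 5 windows, against 19.7% of all 32851 windows of this length. Its match began 7 bases before the start of Ccl9 and 48 bases before that of Ccl6, and Ccl12 held it at 228 and 14 bases and Ccl3 at 209 bases, all on the reverse strand. Ccl8 had no match. In Ccl9 and Ccl6 the match lay within the longest run that their windows share, of 13 bases, which began 14 bases before the start in Ccl9 and 55 bases before it in Ccl6. In Ccl1 the match overlapped a loose form of the NF-kB site (GGGA and CC with 4 bases between them), which none of the 5 windows held (17.6% of all windows did). TATAAA, the TATA box, was found in 3 of the 5 against 12.4% of all windows, 31 bases before the start of Ccl12, 32 before that of Ccl8 and 92 before that of Ccl9, which also had 2 matches on the other strand. TTGCNNAA, a loose C/EBP site, was in none of the 5 against 9.56% of all windows. Among the 15 pairs of the 5 windows and that of Ccl1, Ccl12 and Ccl8 had the longest local alignment, 146 positions with 61.0% identity. The other pairs aligned over short stretches only. These are letter matches chosen after the sequences were seen. Factor binding was not measured.

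The Ccl2 group was enclosed by a loop in each replicate, and the 2 loops matched. The loop of replicate 1 spanned 175 kb, from 81975001 to 81999999, between Asic2 and Ccl2, to 82150001 to 82174999, between Ccl8 and Ccl1. That of replicate 2 spanned 195 kb, from 81980001 to 81984999 to 82175001 to 82179999. All 5 genes lay inside both. The left anchors touched the long noncoding RNA genes Gm11419 and Gm31522 and no end of a protein-coding gene. The right anchor of replicate 2 held both ends of Ccl1, the gene of a chemokine that acts on CCR8. That of replicate 1 stopped 1.67 kb short of Ccl1, so the right anchors met edge to edge without overlapping. Loops were taken as matched when neither anchor's midpoint differed by more than 20 kb between replicates, and here the differences were 5 and 15 kb.

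A shorter loop inside the cluster ran from its middle to the same right-hand side. In replicate 1 it spanned 100 kb from 82050001 to 82074999, which held both ends of Ccl11, to the anchor left of Ccl1. In replicate 2 it spanned 130 kb from 82040001 to 82049999, which held both ends of Ccl7, to 82170001 to 82179999, which held both ends of Ccl1. The midpoints differed by 17.5 and 12.5 kb, so these counted as 1 loop found in both replicates. Their left anchors did not overlap, and the chemokine gene at the left end was Ccl11 in one list and Ccl7 in the other. Ccl12 and Ccl8 lay inside this loop in both replicates, whereas Ccl2 lay outside it in both.

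**Figure D1:**
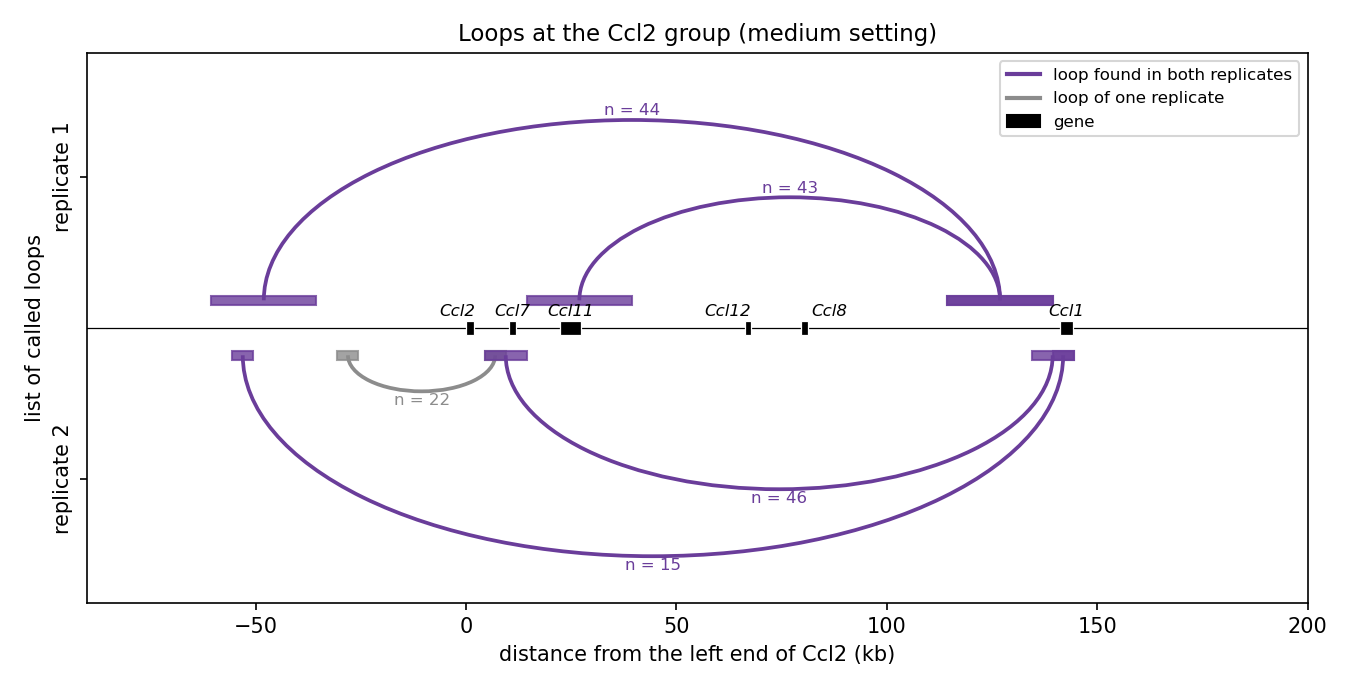
Called loops at the Ccl2 group, with replicate 1 above the gene line and replicate 2 below it, against the distance from the left end of Ccl2 in kb. Bars are anchors to scale, arcs join them and carry n, purple loops were found in both replicates, and the 2 purple loops of each replicate end together near Ccl1.

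Ccl2 itself had a further loop, listed in replicate 2 alone. It spanned 35 kb, the shortest in the window, and joined 82005001 to 82009999 to 82040001 to 82044999. Ccl2 lay inside it, 2.55 kb left of the right anchor, and Ccl7 began 0.713 kb right of that anchor. No gene end lay in either anchor. The matched loops and this one were all in the high list of replicate 2, while neither Ccl2 group loop of replicate 1 was in its high list. Both loops of replicate 1 were on 25 kb anchors, a width that no high-list loop of the window had. Their absence therefore does not show that they were weaker.

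The tag n, a whole number the files do not define, ranks loops only among those of equal anchor width in the same list. The loop from Ccl7 to Ccl1 had n = 46, at or above 94.0% of the 2368 loops on 10 kb anchors in replicate 2, and at or above 97.5% of the 408 of these with a span within 20% of its own. Its replicate 1 counterpart at Ccl11 had n = 43, at or above 87.8% of 1074 loops on 25 kb anchors and 76.1% of the 255 of similar span. The enclosing loop had n = 44 in replicate 1, at or above 89.0% of the same loops and 87.3% of the 283 of similar span, but n = 15 in replicate 2, at or above only 19.2% of 986 loops on 5 kb anchors and 34.2% of the 120 of similar span. The enclosing loop thus ranked above the median in one list and below it in the other, and the inner loop above it in both. The loop over Ccl2 had n = 22, at or above 76.0% of those 986 and 66.9% of the 139 of similar span.

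At the Ccl3, Ccl5 and Ccl9 group 1 loop was found in both replicates, with both pairs of anchors overlapping. In replicate 1 it spanned 60 kb from 83570001 to 83579999, which held all of Ccl9, to 83630001 to 83639999, in the gap between Ccl6 and Ccl3. In replicate 2 it spanned 65 kb from 83570001 to 83574999 to 83635001 to 83639999. The anchor in replicate 2 held the left end of Ccl9 at 83572917 but not its start at 83578636, which lay 3.64 kb beyond the anchor. Ccl9 is on the minus strand, so the narrower anchor covered its 3′ end. Ccl6 lay inside the loop in both replicates and Ccl3 began 7.84 kb to the right of it. The values of n were 17 in replicate 1, the median of its 202 loops on 10 kb anchors, and 21 in replicate 2, at or above 70.3% of its loops on 5 kb anchors. Among loops of similar span and equal width these ranks were 37.3% of 59 loops and 63.3% of 199 loops.

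The other 5 loops of this group were listed in replicate 2 alone, and 3 of them formed a chain with the Ccl9 loop. One of 100 kb ran from 83630001 to 83639999, the gap that also ended the loop of Ccl9, to 83730001 to 83739999, between Wfdc18 and Wfdc21, and held Ccl3 and Ccl4. One of 175 kb ran from 83550001 to 83574999, with the left end of Ccl9, to 83725001 to 83749999, with the left end of Wfdc21, a gene of the whey acidic protein family. Together with the Ccl9 loop, these placed a loop between each pair of 3 sites, at Ccl9, in the gap left of Ccl3, and left of Wfdc21. A further loop of 70 kb joined 83660001 to 83669999, which held the right end of Ccl4, to the same 83730001 to 83739999. Its n of 52 was at or above 97.9% of the 2368 loops on 10 kb anchors in replicate 2, the highest such rank in the window, and 95.5% of the 445 of similar span. That of the 175 kb loop, 96, was at or above 88.0% of 2375 loops on 25 kb anchors and 87.4% of the 477 of similar span. That of the 100 kb loop, 41, was at or above 86.5% of loops on 10 kb anchors and 88.0% of the 499 of similar span.

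Ccl5 lay apart from this chain. It was inside a loop of 50 kb in replicate 2, from 83490001 to 83499999 in Taf15 to 83540001 to 83549999, with n = 40 (at or above 84.7% of loops on 10 kb anchors and 63.1% of the 548 of similar span). Its nearer anchor lay 9.48 kb away. A loop of 650 kb, from 83325001 to 83349999 in Ap2b1 to 83975001 to 83999999 in Synrg, was the only one that held all 5 genes of the group, and its n of 35 was at or above 13.5% of loops on 25 kb anchors and 38.3% of the 243 of similar span. In replicate 1 no loop covered Ccl5, Ccl3 or Ccl4. Of the 6 replicate 2 loops over or touching the group, 4 were in the high list. The 175 and 650 kb loops were not, like every other loop of the window on 25 kb anchors.

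**Figure D2:**
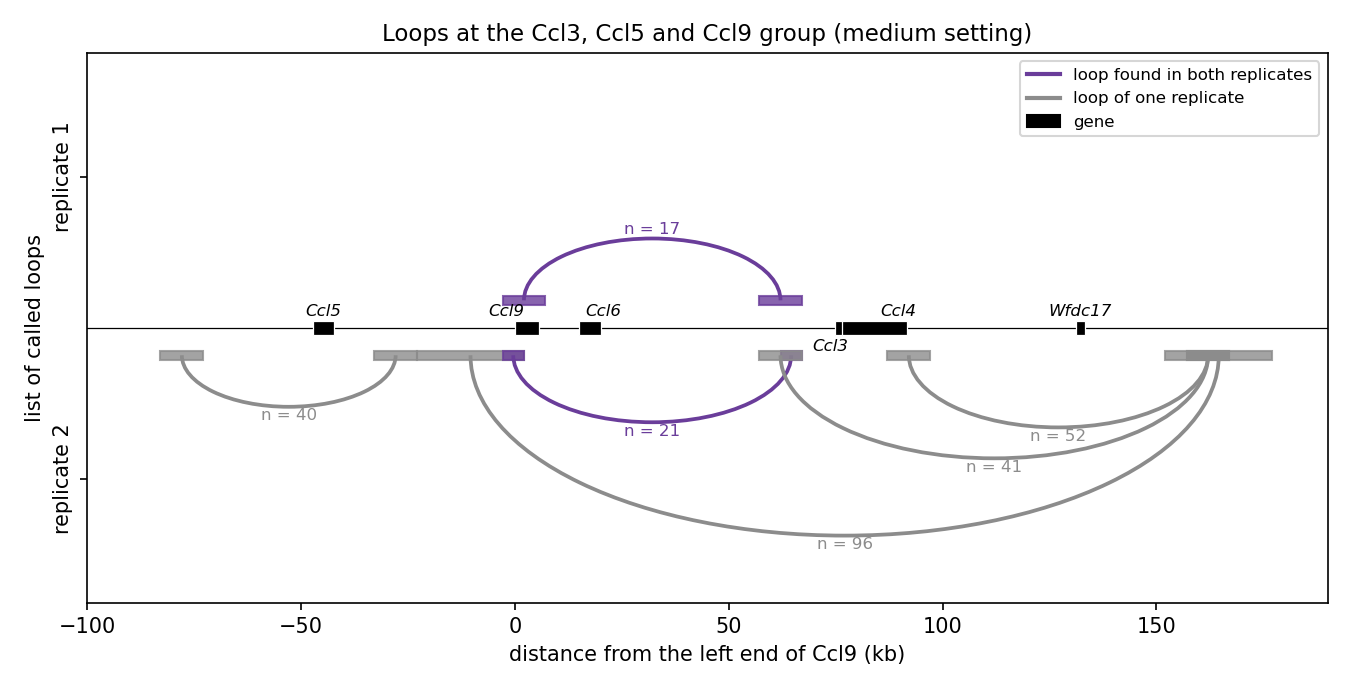
Called loops at the Ccl3, Ccl5 and Ccl9 group, drawn in the same way against the distance from the left end of Ccl9 in kb. The loop with n = 17 in replicate 1 and n = 21 in replicate 2 was found in both, the 4 grey loops were in replicate 2 alone, and the 650 kb loop over the whole group and loops that do not reach it are left out (Ccl3 is drawn over the annotated Ccl4, which it overlaps).

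Set side by side, the groups differed in how their loops were arranged. The Ccl2 group, 81.2 kb long, had 2 loops over or touching it in replicate 1 and 3 in replicate 2, of which 2 in each list were found in both. The Ccl3, Ccl5 and Ccl9 group, 139 kb long, had 1 in replicate 1 and 6 in replicate 2, of which 1 in each was found in both. With overlap of both anchors required, only the Ccl9 loop was found in both, and neither match of the Ccl2 group was. All 5 genes of the Ccl2 group lay inside a loop in both replicates, against Ccl9 and Ccl6 alone in the other group. Inside means between the outer edges of the anchors, and Ccl9 was itself at an anchor in both. Only for Ccl9 did a gene end lie in an anchor of both replicates. Over the window 3 of 4 loops of replicate 1 and 3 of 18 of replicate 2 had a partner, beside 80.6% and 18.2% of the whole lists. With 2 clusters of unequal length and 2 lists of unequal size there was no test of these differences. No loop joined one group to the other across the 1409 kb between them, and the longest loops in the window spanned 650 kb.

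**Figure D3:**
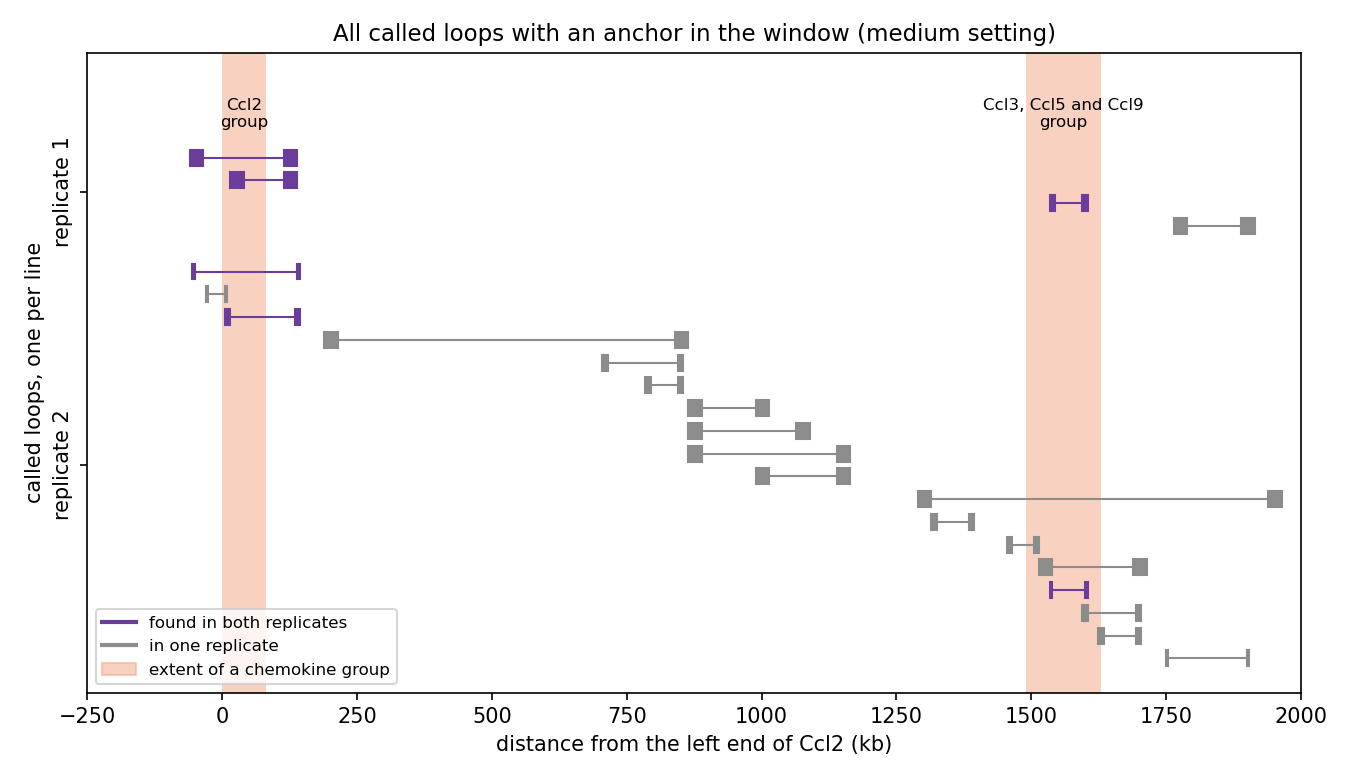
All 22 loops with an anchor in the window, 1 per line, with anchors as blocks at their true width against the distance from the left end of Ccl2 in kb. The 3 loops found in both replicates (purple) lie at the shaded chemokine groups, and no line runs from one shaded group to the other.

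A gene end lay in an anchor of either replicate for 4 of the 10 genes, Ccl7 and Ccl11 in one group and Ccl9 and Ccl4 in the other, against 22.5% of all protein-coding genes. In replicate 1 it was 2 of 10 (Ccl11 and Ccl9) against 6.67%, in replicate 2 it was 3 of 10 (Ccl7, Ccl9 and Ccl4) against 19.8%, and in both it was Ccl9 alone against 3.96%. Among the other 34 protein-coding genes of the window the count was 12 in either replicate, 1 in replicate 1 and 11 in replicate 2. Genes inside a loop were counted between its outer edges, so a gene at an anchor can be among them. They numbered 7 of the 10 in replicate 1 against 9.28% of all genes and 10 of 10 in replicate 2 against 34.0%. In both replicates they numbered 7 against 8.35%. Among the other 34 genes of the window the counts were 1, 27 and 1, so in replicate 2 most genes of the window (79.4% of these 34) lay inside a loop. Neighbouring genes share loops: 1 loop accounts for all 5 Ccl2 group genes in replicate 1. The members were chosen with these loops known, so nothing can be read from counts above the background.

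The distance from each gene to the nearest anchor followed the same layout. In replicate 2 Ccl7, Ccl9 and Ccl4 touched an anchor, Ccl2 lay 2.55 kb away, Ccl3 7.84 kb, Ccl11 7.83 kb, Ccl5 9.48 kb and Ccl6 12.9 kb. Ccl12 and Ccl8 were the farthest, at 51.8 and 53.2 kb, well inside the loops that cover them. In replicate 1 Ccl11 and Ccl9 touched an anchor, Ccl7, Ccl3, Ccl6 and Ccl4 lay 2.48 to 8.62 kb away, Ccl2 12.5 kb, Ccl12 26.8 kb, Ccl8 33.2 kb and Ccl5 39.5 kb. The medians of the 10 genes were 8.26 kb in replicate 1 and 7.84 kb in replicate 2, and those of all protein-coding genes were 387 and 27.1 kb. Ccl2, Ccl7, Ccl4 and Ccl5 were nearer to an anchor in replicate 2 than in replicate 1, and Ccl11, Ccl12, Ccl8 and Ccl6 were farther. Anchor widths differed between the lists, with 986 loops on 5 kb anchors in replicate 2 and none in replicate 1. The part of width in these shifts was not tested.

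**Figure D4:**
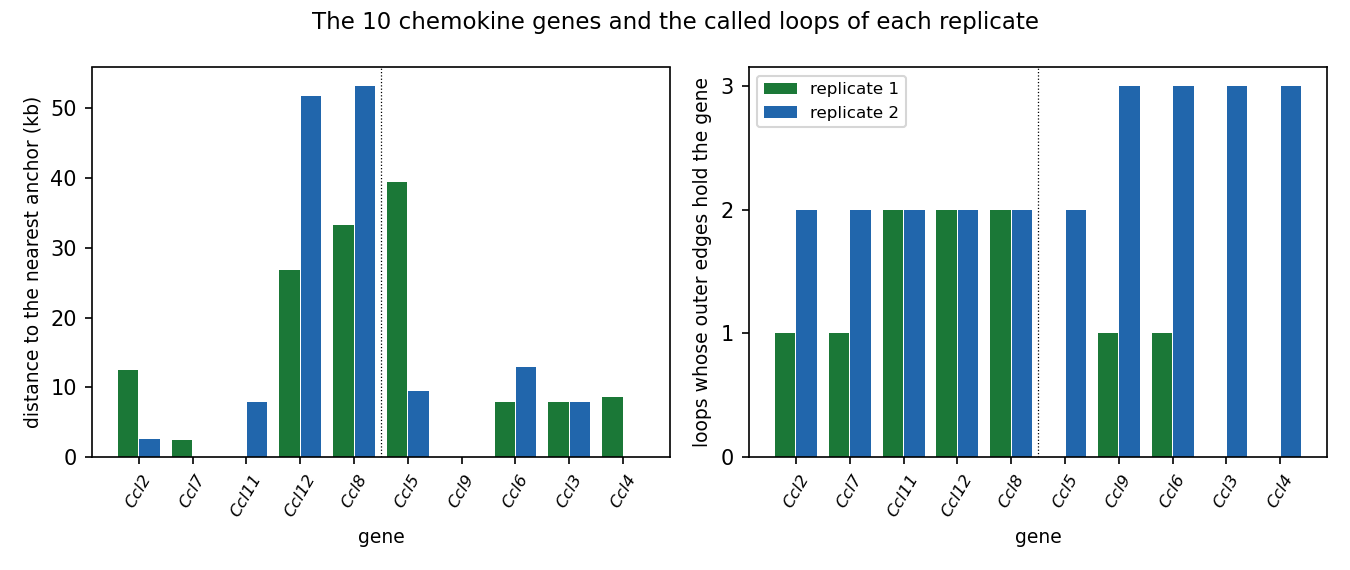
The left panel gives the distance from each of the 10 genes to the nearest anchor in kb and the right panel the number of loops whose outer edges hold the gene, with a bar per replicate, no bar at 0 and a dotted line between the groups. Ccl12 and Ccl8 were the farthest from anchors in replicate 2, and Ccl5, Ccl3 and Ccl4 had loops over them in replicate 2 alone.

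Annotation limits some of these placements. The RefSeq table gives Ccl4 a length of 16060 bp, from 83648624 to 83664683, which overlaps Ccl3 at 83647843 to 83649378. A gene of that length counts as lying at an anchor by either end, and the end of Ccl4 in the anchor was the right one. Without a strand for Ccl4 it is not known here whether that end was the start. The anchors of Ccl7 and Ccl11 held both ends and so the start on either strand.

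No domain was listed in the window. Replicate 1 listed only 3 domains in all, none of them on chromosome 11, and replicate 2 had 15 there of 339 in all. The nearest lay at 77095001 to 77460000, ending 4576 kb left of Ccl2, and at 85380001 to 85840000, starting 1715 kb right of Ccl4.

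Of the other CC chemokine genes, 12 of 13 listed were placed on an assembled chromosome, and 3 of the 12 had an end in an anchor of either replicate. These were Ccl1, described above, Ccl17 and Ccl25. Ccl17, a gene of a T cell attractant that binds CCR4, was at a loop found in both replicates on chromosome 8. It spanned 100 kb in replicate 1, from 94800001 to 94824999 to 94700001 to 94724999, and 110 kb in replicate 2, from 94810001 to 94819999 to 94700001 to 94709999, with no protein-coding gene end at the other anchor. The n values of these were 47 and 38. Ccl25 was at 3 loops of replicate 2. Of 15 receptor genes 2 (13.3%, against the same 22.5%) had an end in an anchor, Ccr4 and Ccr10, both in replicate 2 alone.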

How the data were processed

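Hi-C was analysed in 2 replicates of HPC5 cells. Per the labels' protocols, crosslinked chromatin was cut with the Arima enzymes, filled in with biotin, ligated and sequenced. HiC-Pro 2.11.1 and the build mm10 are listed in the submitters' processing notes. Which program called loops and domains was not given in the sources used here. The values deposited by the authors are positions in base pairs, with the undefined tags n and qBL for loops. No read totals are in the lists, so the depth is unknown.

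Loops were matched between replicates at up to 20 kb between midpoints, left and right. The span is the distance between midpoints. Gene positions are those of RefSeq for GRCm38.p6 (mm10 is UCSC's name for GRCm38), and 345 scaffold genes were left out. Domain starts were moved to count from 1. Upstream sequences are RefSeq's and were aligned locally with Biopython 1.88 in Python 3.11.15. Motifs were searched on both strands. Matching and placement were tested on simulated data. No test between conditions was made, since there is 1 group. The members, lists and measures were chosen with earlier results of these data known. Named genes are the 10 members, genes at anchors of the window's loops, genes next to the groups, and other CC ligands and receptors at anchors, named by symbol where the loop was in a single replicate. Alternatives were the high lists, each replicate alone, other matching distances, overlap, gene ends within 5 or 10 kb, gene bodies, start sites, a wider window and other gene backgrounds.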

Additional observations from a re-analysis of the deposited data

How the results depend on the processing

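The count of 22 loops in the window was 12 in the high lists, between 4 and 18 with 1 replicate left out, and still 22 in a window wider by 200 kb on each side. Of the 3 loops found in both replicates, 1 remained in the high lists, with midpoints within 10 kb or with overlap of both anchors. It was the Ccl9 loop each time, so neither match of the Ccl2 group remained. For the high lists this was fixed in advance. The Ccl2 group loops of replicate 1 were on 25 kb anchors, and no such loop of the window was in a high list. With midpoints within 40 kb, 4 loops were found in both replicates. The added loop, with an end of Ddx52 in its replicate 1 anchor, lay outside both groups. No count of shared loops could be made with 1 replicate.

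Ccl2 group genes at anchors, 2 of 5, numbered 1 in the high lists and 1 without either replicate. They numbered 3 with gene ends within 5 or 10 kb, and by start site 0 of the 2 with a known strand. Those 2 are Ccl12 and Ccl8, so the value does not bear on Ccl7 and Ccl11, whose anchors held both gene ends. Those of the other group, also 2 of 5, numbered 2 in the high lists and 1 to 2 with a replicate left out. They numbered 2 with gene ends within 5 kb, 5 within 10 kb and 1 of 3 by start site. Loops over the whole Ccl2 group, 2 in all, numbered 1 in the high lists and 1 without either replicate, and 5 held any member. For the other group the 1 loop became 0 in the high lists and 0 to 1 with a replicate left out. Loops holding any member of that group numbered 6. In each group the whole-group loop missing from the high lists was on 25 kb anchors, so its loss there was fixed by anchor width. The background of 22.5% was 9.53% in the high lists, 6.67 to 19.8% with a replicate left out, 30.6% and 36.5% with ends within 5 and 10 kb, 30.0% by gene body, 14.9% by start site, 25% on chromosome 11 and 16.7% for all annotated genes. Other causes were not tested. The depth is unknown, so what it limits could not be stated.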

Other observations

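Between the chemokine groups, replicate 2 listed loops among Schlafen genes, which are interferon-regulated genes of immune cells and were named after their values were seen. An anchor at 82900001 to 82924999, with ends of Fndc8, Nle1 and Unc45b, was joined to 83025001 to 83049999 at the pseudogene Slfn10-ps, to 83100001 to 83124999 at Slfn1, and to 83175001 to 83199999 at Slfn4 and Slfn3, over 125, 200 and 275 kb. A loop of 150 kb joined the first and last of these Schlafen sites. No loop of replicate 1 lay there. All of these Schlafen loops were on 25 kb anchors, and 7.03% of all replicate 2 loops of that width had a partner in replicate 1.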
